A study of Mus musculus with 6 samples.

Results

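The ubiquitin-specific proteases (USPs) are a family of cysteine proteases that take ubiquitin off proteins or trim ubiquitin chains. Here they are the genes whose symbol is Usp followed by a digit, except Usp18, with a mean of at least 10 normalized counts over the 6 libraries. Of 46 such symbols in a table of 18288 genes, 43 met this rule, and all 43 passed the filter on low values. The members just inside the limit were Usp35 with a mean of 30.7 and Usp49 with 44.8, and those outside it were the antisense transcripts Usp46os1 and Usp46os2, both with a mean of 1.76. One member, Usp6nl, shares only its name with the family: it encodes a GTPase-activating protein for RAB proteins. The count of a gene in a library was divided by 1 size factor for that library, which gives the normalized counts used throughout.

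The libraries came from mouse CD8+ T cells, the cytotoxic T cells, activated in culture and taken on day 2. They fall into 2 groups of 3 biological replicates, Nae1T-KO and Nae1WT, named for the state of Nae1, and how Nae1 was deleted and in which cells is not given in the sources used here, nor are strain and age. Nae1 encodes a subunit of the enzyme that activates NEDD8, a ubiquitin-like protein. Whether each replicate is a separate mouse is not stated, and p-values therefore cover only the spread among these 6 libraries.

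Ubiquitin ligases attach ubiquitin to substrates, and USPs reverse that step. Cullin-RING ligases are switched on when NEDD8 is joined to their cullin, so USPs and the NEDD8 pathway can act in opposite directions on the same substrates. Some members are tied to this system directly: USP15 and USP48 are known to bind the COP9 signalosome, which removes NEDD8 from cullins. In T cells, USP15 and USP8 are known for parts in receptor signalling and T cell maturation, and USP22 for its place in the SAGA chromatin complex.

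Nae1 was the check of the labels, with 390.3, 338 and 367 normalized counts in Nae1T-KO replicates 1 to 3 and 1601, 1806 and 1882 in Nae1WT (limma log2 fold change -2.27, adjusted p = 5.03e-07). Libraries held 15628252 to 25444653 recovered reads. Of 13819 genes tested, 903 were higher and 854 lower in Nae1T-KO, or 1176 and 622 with scaling to equal total counts. Xist and Y-linked genes put Nae1T-KO replicates 1 and 2 and Nae1WT replicate 3 apart as female from the other 3 libraries. Of 8 CD8 T cell markers 7 were in the table: Cd8a, with 6080 to 8186 normalized counts, overlapped between the groups, and 2 fell in Nae1T-KO, Cd3g (2081 to 2445 against 2959 to 3386) and Prf1 (1020 to 1162 against 1337 to 1490). The 5 myeloid markers in the table, of 10 listed, summed to 64.9 to 111 in Nae1T-KO and 17.8 to 33.2 in Nae1WT, and the 6 CD4 T cell markers to 477 to 886 and 285 to 429. Most of the latter gap was in Il13 (245 to 669 against 83.5 to 203), while Cd4 overlapped (20.1 to 118 against 20.9 to 119). The 8 B cell markers found, of 9 listed, summed to 202 to 552 and 228 to 359, the 6 erythroid markers to 181 to 1908 and 136 to 594, and the 2 NK and gamma-delta T cell markers found, of 4 listed, to 9.69 to 26.3 and 16.7 to 25.8. Nae1T-KO replicate 2 held the highest B cell and erythroid sums, against 202 and 263 and against 327 and 181 in the other Nae1T-KO libraries. No marker in the table was at 0 in every library, and the part of these cells in the differences of USP genes was not tested.

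Most USP genes differed little between the groups. Of the 43, 4 fell in Nae1T-KO (Usp16, Usp15, Usp1 and Usp47), 1 rose (Usp3), and 38 did not pass the threshold of adjusted p under 0.05. That is 11.6% of the members, near the 12.7% of all tested genes that were called, of which 6.53% were higher and 6.18% lower. For 16 members the groups were without overlap, 7 higher and 9 lower in Nae1T-KO, or 37.2% of members. Over all tested genes 33.7% were without overlap, 16.7% higher and 17% lower. The median log2 fold change of the members was 0.03, and over all tested genes it was -0.01. In absolute size the median was 0.14 for the members and 0.19 for all tested genes, and 2 members (Usp35 and Usp2, neither past the threshold) exceeded 0.5, which is 4.65% against 15.4% of all genes. An unadjusted limma p under 0.05 was found for 15 members, 34.9%, against 29.1% of all tested genes. For 31 members the 95% interval of the log2 fold change lay within 0.5 of 0 on both sides. In bulk RNA, fewer cells of a type and less RNA per cell cannot be told apart.

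**Figure D1:**
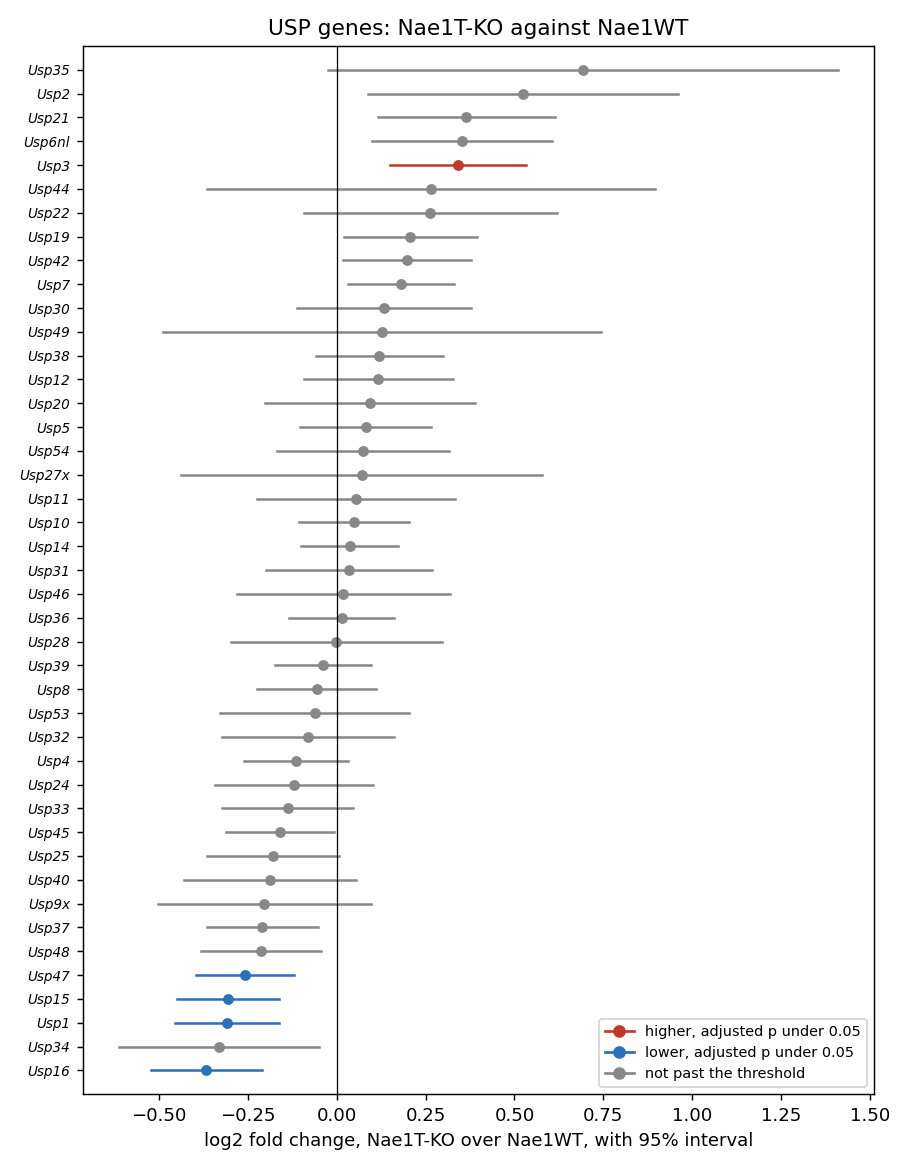
Log2 fold change (x axis, Nae1T-KO over Nae1WT) of the 43 USP genes (y axis), with points for the limma estimate and lines for its 95% interval. The 4 genes in blue and the 1 in red passed the threshold, and grey genes on both sides of 0 did not.

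As a sum over the 43 genes, USP transcripts made up 0.350%, 0.379% and 0.328% of normalized counts in Nae1T-KO replicates 1 to 3 and 0.372%, 0.342% and 0.361% in Nae1WT replicates 1 to 3. The groups overlapped in this share. Per kilobase of merged exons, Usp1 was highest, with 1369 to 1788 normalized counts per kilobase over the 6 libraries. Usp39, a splicing factor, followed Usp1 with 1008 to 1070 per kilobase, then Usp7 with 608 to 736 and Usp5 with 471 to 572. The ranges of these 4 genes did not overlap each other. Below them, Usp19 with 351 to 480 per kilobase overlapped Usp5 and also Usp8, Usp25 and Usp36. At the low end Usp35 with 2.97 to 7.999 per kilobase and Usp49 with 3.70 to 6.83 overlapped each other, and Usp27x and Usp44 had 9.08 to 21.1.

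**Figure D2:**
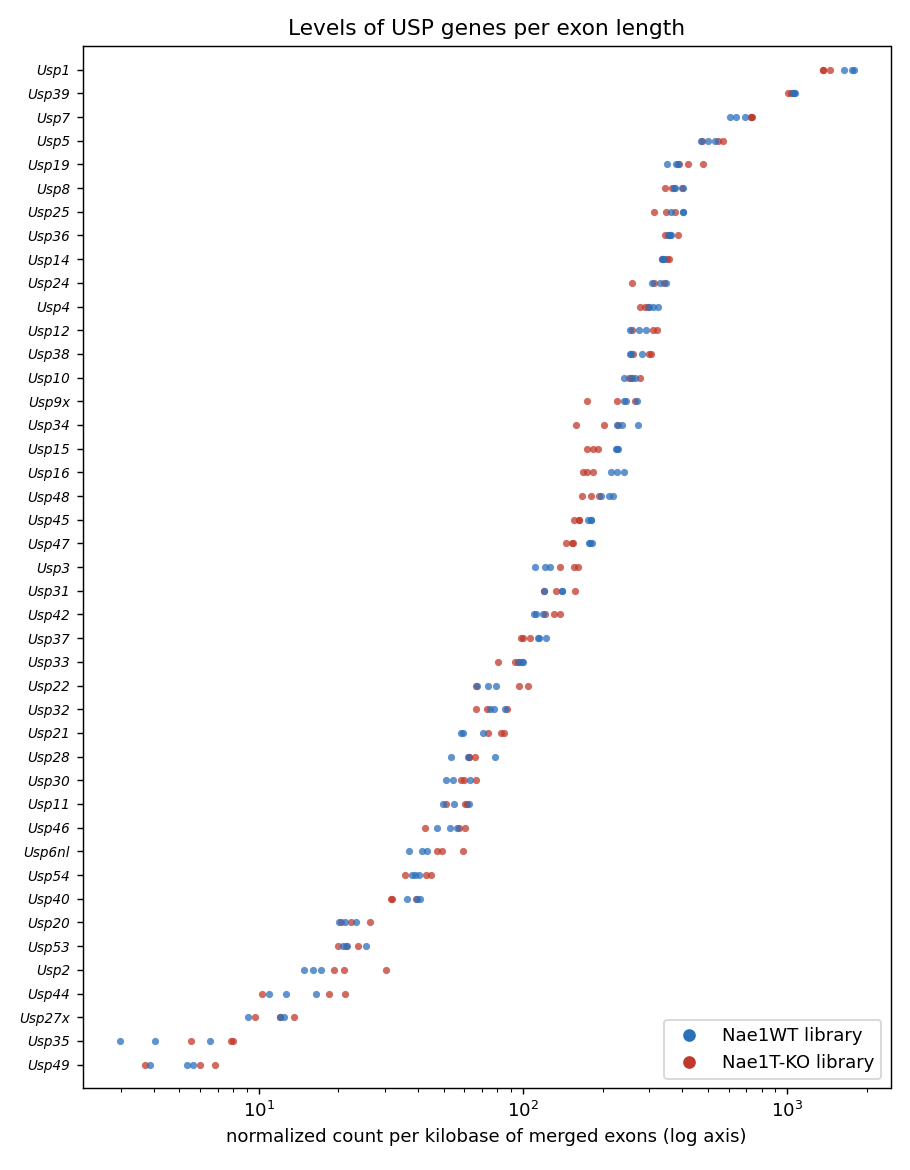
Normalized count per kilobase of merged exons (x axis, log scale) for each USP gene (y axis), with 1 point per library, blue for Nae1WT and red for Nae1T-KO. Usp1 and Usp39 have the highest levels, and Usp49 and Usp35 the lowest.

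Among the members that act on histones, chromatin or the nucleolus, Usp16 fell and Usp3 rose, although both encode proteases known to take ubiquitin off histones. Of 9 members of this role, 1 was higher, 1 lower and 7 did not pass the threshold, with a median log2 fold change of 0.20. Called members were 22.2% of this role against 12.7% of all tested genes. At an unadjusted limma p under 0.05 the shares were 44.4% and 29.1%, on 9 genes. These are too few to set the role apart, and the role lists were chosen with earlier results of these data known. Normalized counts of Usp16 in Nae1T-KO replicates 1 to 3 were 1600.5, 1655 and 1738, and in Nae1WT they were 2029.6, 2271 and 2142. Every Nae1T-KO library was below every Nae1WT library. The means were 1664 ± 69.2 (SD, n = 3) and 2147 ± 121 (SD, n = 3), a mean that fell by 22.5%, with a log2 fold change -0.37 (SE 0.07, limma adjusted p = 0.00907). Its gene spans chr16:87454985-87483515 (GRCm38, the mm10 build), and its exons share 192 bases with Cct8 on the opposite strand. Cct8, which encodes a chaperonin subunit, had 19024 and 19559 normalized counts in the 2 groups (adjusted p = 0.747). How the read counter treated strand is not given in the sources used here.

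Usp3 had 947, 1067 and 1103 normalized counts in Nae1T-KO and 868, 761 and 828 in Nae1WT. All 3 Nae1T-KO libraries were above all 3 Nae1WT libraries, and replicate 1 of each group lay closest to the other group. The means were 1039 ± 81.4 (SD, n = 3) and 819 ± 54.1 (SD, n = 3), which gave log2 fold change 0.34 (SE 0.09, adjusted p = 0.0287). The call depended on single libraries: adjusted p was 0.0829 and 0.0600 when Nae1T-KO replicate 2 or 3 was left out, and 0.116 and 0.0798 when Nae1WT replicate 2 or 3 was, and it ranged from 0.011 to 0.161 across all alternatives. Usp3 lies on chromosome 9 from 66514639 to 66593148.

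The RefSeq window around the start of Usp3 (GRCm38.p6, from 250 bases before to 50 after it) is shown as the stretch of it outside annotated transcripts, since Usp3 was the 1 member that rose. It is 217 bases at chr9:66593149-66593365 on the minus strand, with matches to the SP box GGGCGG (either strand) in capitals.
Usp3 upstream: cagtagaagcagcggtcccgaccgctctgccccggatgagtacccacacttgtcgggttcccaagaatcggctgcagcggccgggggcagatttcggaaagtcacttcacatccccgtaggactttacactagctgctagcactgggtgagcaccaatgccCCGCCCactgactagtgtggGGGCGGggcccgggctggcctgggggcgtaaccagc
The SP box occurred in 35.7% of 32851 such windows of 300 bases and in those of 25 of the 33 members that the RefSeq table matched by symbol. The 32851 windows, also used for the shares below, were not limited to genes tested here. Members had to pass a minimum level, so the shares are not like for like.

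Usp16 and Usp15, both of which fell, share a word of 12 bases, TTCCCACAATGC, the longest stretch common to their windows. This pair was picked after the sequences were read. Because the word was taken from these windows, its presence in both was fixed in advance. It occurred in 24 of the 32851 windows, 0.0731%, on either strand, and in no other of the 33 matched members. That share does not measure a link between the genes. In Usp15 the word ends at the last base of the window, which limits its length. Each stretch below is 30 bases, with the word in capitals and, in Usp16, also the ETS core CCGGAAG, found on either strand in 8.86% of windows.
Usp15 (chr10:123196970-123196999, minus strand): gcggggccggggacgccaTTCCCACAATGC
Usp16 (chr16:87454955-87454984, plus strand): TTCCCACAATGCcgcgttCCGGAAGttgcc
The word began 30 bases before the RefSeq start of Usp16 and at base 39 after that of Usp15. The printed Usp16 stretch lies within an exon of Usp16 in the GENCODE annotation. The printed Usp15 stretch lies within the Usp15 gene, whose RefSeq span reaches upstream of the start used here. Neither stretch is therefore sequence outside annotated genes. The match is a description of the letters, and no factor's binding was measured. The core of the antioxidant response element, TGACNNNGC, was found on either strand in the windows of 7 of the 33 members and of 12.4% of all windows, and in none of the windows of Usp3, Usp15, Usp16 and Usp47.

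The other members of the chromatin role did not pass the threshold. Usp21, a histone protease, came closest, with 351, 394 and 402 normalized counts in Nae1T-KO and 335, 276 and 281 in Nae1WT. The groups did not overlap, with Nae1WT replicate 1 nearest to Nae1T-KO (log2 fold change 0.36, SE 0.11, adjusted p = 0.0588). It was past the threshold once Nae1WT replicate 1 was left out (adjusted p = 0.0399), with scaling to equal total (adjusted p = 0.0467) and in limma-voom (adjusted p = 0.0460), and it ranged from 0.0399 to 0.213 across all alternatives. Usp22, the SAGA protease, had 471, 511 and 323 against 359, 326 and 384. Nae1T-KO replicate 3 lay below all Nae1WT libraries while replicates 1 and 2 lay above them (log2 fold change 0.26, 95% interval -0.09 to 0.62, adjusted p = 0.308). Leaving out Nae1T-KO replicate 3 put it past the threshold (0.46, adjusted p = 0.0247, range 0.0247 to 0.787 across all alternatives). Usp36, the nucleolar protease, had a log2 fold change of 0.01, Usp42 of 0.20 (758 to 862 normalized counts in Nae1T-KO and 686 to 743 in Nae1WT, without overlap, adjusted p = 0.139), Usp27x of 0.07, Usp44 of 0.27 and Usp49 of 0.13. The last 3 were low, with 27 to 84 recovered reads per library.

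**Figure D3:**
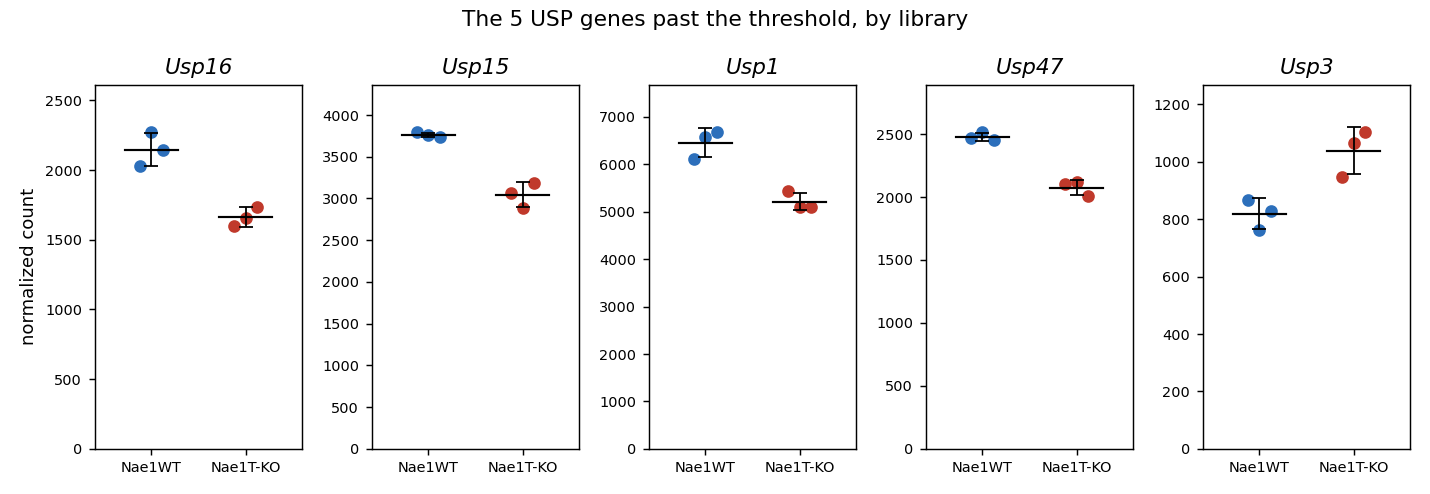
Normalized count (y axis, from 0) of the 5 USP genes past the threshold, 1 point per library, blue for Nae1WT and red for Nae1T-KO, with the mean as a horizontal line and the SD (n = 3) as error bars. In each panel the 2 groups do not overlap.

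The members tied to DNA replication, DNA damage, p53 and the cell cycle included Usp1 and Usp47, which fell. Among its 9 members 0 rose, 2 fell and 7 were not called, with a median log2 fold change of -0.12 and 3 positive against 6 negative values. edgeR, DESeq2 and limma-voom also called 0 members of this role higher, and 5 of the 9 had an unadjusted p under 0.05 in limma in either direction. Called members were 22.2% of this role against 12.7% of all tested genes, and those at an unadjusted p under 0.05 were 55.6% against 29.1%, on 9 genes. With so few genes, in a list chosen with earlier results of these data known, these shares do not set the role apart.

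Usp1 encodes the protease that, with its partner WDR48, removes ubiquitin from the clamp protein PCNA and from FANCD2 of the Fanconi anemia pathway. It had 5432, 5109 and 5108 normalized counts in Nae1T-KO and 6113, 6582 and 6675 in Nae1WT. Every Nae1T-KO library was lower, and Nae1WT replicate 1 lay nearest to them. The means were 5216 ± 187 (SD, n = 3) and 6457 ± 301 (SD, n = 3), a mean that fell by 19.2% (log2 fold change -0.31, SE 0.07, adjusted p = 0.0142). Without Nae1WT replicate 2 or 3 adjusted p was 0.0662 and 0.0735, and it ranged from 0.000777 to 0.169 across all alternatives. Usp1 lies on chromosome 4 from 98923810 to 98935543, and no other measured gene shares its exons. Its partner gene Wdr48 had a log2 fold change of -0.04 (adjusted p = 0.758). The other members known to work with WDR48, Usp12 and Usp46, had log2 fold changes of 0.12 and 0.02 with overlapping groups.

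Usp47, a protease linked to base excision repair, had 2100.4, 2118 and 2005 normalized counts in Nae1T-KO and 2467, 2513 and 2455 in Nae1WT. The 2 groups did not overlap, and each kept within a narrow range. The means were 2074 ± 60.4 (SD, n = 3) and 2478 ± 30.6 (SD, n = 3), with a log2 fold change -0.26 (SE 0.06, adjusted p = 0.0238). The call ended without any 1 of 4 libraries (adjusted p = 0.0532 without Nae1T-KO replicate 1, and 0.0569, 0.0986 and 0.0825 without Nae1WT replicates 1, 2 and 3) and with scaling to equal total (adjusted p = 0.0634), and it ranged from 0.00896 to 0.229 across all alternatives. Usp47 lies on chromosome 7 from 112023476 to 112111386.

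Usp37, which acts on cyclin A, had 1090.5, 1172 and 1104 normalized counts in Nae1T-KO and 1266, 1351 and 1275 in Nae1WT. The groups did not overlap, but the test did not pass (log2 fold change -0.21, 95% interval -0.36 to -0.05, adjusted p = 0.0759). Usp7, which acts on MDM2 and p53, was in the other direction, with 5715, 5662 and 5670 against 5364, 4723 and 4965. The 3 Nae1T-KO libraries lay close together above all Nae1WT libraries (log2 fold change 0.18, SE 0.07, adjusted p = 0.103). Usp10 had 2482, 2659 and 2399 against 2303, 2445 and 2539, and Usp28, a protease that acts on MYC, had 365, 385 and 364 against 457, 361 and 311. Both overlapped, with log2 fold changes of 0.05 (95% interval -0.11 to 0.20) and -0.001 (95% interval -0.30 to 0.30). The sign for Usp28 changed with total-count scaling (0.0459), TMM scaling (0.00159), limma-voom (0.0332) and sex as a covariate (0.0556). Usp45 had -0.16 with groups that did not overlap (967 to 1017 normalized counts in Nae1T-KO and 1094 to 1128 in Nae1WT, adjusted p = 0.154), Usp24 -0.12 and Usp11 0.05, none past the threshold.

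In the signalling role, Usp15 was the 1 member of 9 that fell, and 0 rose in limma, edgeR, DESeq2 or limma-voom. Called members were 11.1% of this role against 12.7% of all tested genes. At an unadjusted p under 0.05 in limma there were 4 of the 9, 44.4% against 29.1% of all tested genes. Here too 9 genes are too few to set the role apart. The median log2 fold change was -0.11. Usp15 had 3060, 2888 and 3191 normalized counts in Nae1T-KO and 3792, 3757 and 3735 in Nae1WT. The Nae1WT libraries lay close together, and all were above every Nae1T-KO library. The means were 3046 ± 152 (SD, n = 3) and 3761 ± 28.5 (SD, n = 3), a mean that fell by 19.0%, with a log2 fold change -0.31 (SE 0.06, adjusted p = 0.0130). Without Nae1WT replicate 2 or 3 adjusted p was 0.0544 and 0.0541, and it ranged from 0.00129 to 0.255 across all alternatives. Usp15 lies on chromosome 10 from 123105006 to 123197281, and its exons share 169 bases with Gm4129 on the opposite strand, which had means of 31.5 and 41.6 normalized counts.

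Usp4 and Usp11 are the closest relatives of Usp15. The log2 ratio of Usp15 to Usp4 was 0.29, 0.17 and 0.42 in the Nae1T-KO libraries, against 0.43, 0.53 and 0.48 in those of Nae1WT, lower in every Nae1T-KO library by a mean difference of 0.19 (0.29 against 0.48). The log2 ratio of Usp15 to Usp11 was 3.48 ± 0.162 in Nae1T-KO and 3.84 ± 0.159 in Nae1WT (SD, n = 3), again without overlap. These ratios were not tested, and of 9 pairs of relatives set side by side 3 were without overlap, the third being Usp16 and Usp45. In all 3 the first gene, Usp15 or Usp16, was itself called lower, so these ratios are not independent of that call. The other 6 overlapped: Usp12 and Usp46, Usp25 and Usp28, Usp20 and Usp33, Usp22 and Usp27x, Usp53 and Usp54, and Usp44 and Usp49. Usp4 itself had a log2 fold change of -0.11, with groups that did not overlap and adjusted p = 0.286. A similar relative of Usp16 is Usp45, and the log2 ratio of Usp16 to Usp45 was 0.65, 0.78 and 0.78 in the Nae1T-KO libraries, against 0.85, 1.05 and 0.93 in those of Nae1WT.

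Usp48, the other member known to bind the COP9 signalosome, had 1756, 1877 and 1625 normalized counts in Nae1T-KO and 2119, 1916 and 2054 in Nae1WT. The groups were close but did not overlap (log2 fold change -0.21, SE 0.08, adjusted p = 0.0924). Usp34, which acts in WNT signalling, had 3736, 4215 and 2937 against 5017, 4194 and 4380.02. Nae1T-KO replicate 3 was far below the rest, and the groups overlapped by Nae1T-KO replicate 2 (log2 fold change -0.33, adjusted p = 0.115). Usp34 passed without Nae1T-KO replicate 2 (-0.45, adjusted p = 0.0492, range 0.0492 to 0.279 across all alternatives), and its exons share 2137 bases with Ahsa2 on the opposite strand. Usp2 had 145, 92.5 and 101 against 71.2, 82.6 and 76.9. All Nae1T-KO libraries were above Nae1WT, replicate 1 the most (log2 fold change 0.52, 95% interval 0.09 to 0.96, adjusted p = 0.108), on 58 to 130 recovered reads per library. Usp40 had -0.19, and Usp31 0.03.

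**Figure D4:**
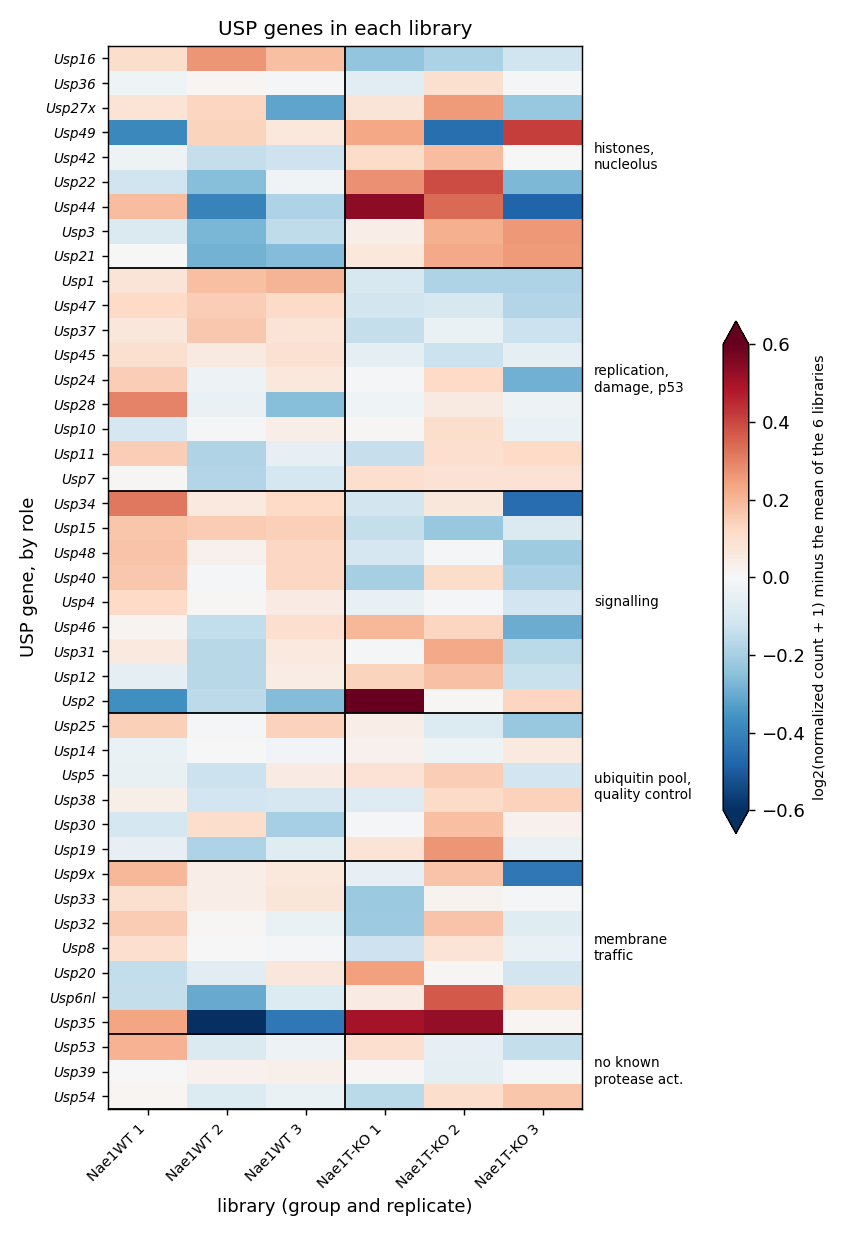
Deviation of each USP gene from its mean over the 6 libraries (colour, on the scale of log2 of normalized count plus 1, saturated beyond 0.6) by library (x axis, 3 Nae1WT left and 3 Nae1T-KO right) and gene (y axis, grouped by role). Usp16, Usp1, Usp47 and Usp15 are above their mean in all 3 Nae1WT libraries and below it in all 3 Nae1T-KO libraries, and Usp34 and Usp9x are lowest in Nae1T-KO replicate 3.

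None of the members that serve the ubiquitin pool, the proteasome or protein quality control was called. Of 6 members, 0 were called in limma, edgeR, DESeq2 and limma-voom, against 12.7% of all tested genes in limma. In limma 1 had an unadjusted p under 0.05, 16.7% against 29.1%. These 6 genes are too few to set the role apart. The median log2 fold change was 0.10, with 5 positive and 1 negative value. Usp14, the protease that rides on the proteasome, had 2918, 2805 and 2983 normalized counts in Nae1T-KO and 2791, 2864 and 2832 in Nae1WT. These overlapped closely (log2 fold change 0.04, 95% interval -0.10 to 0.17, adjusted p = 0.744), and its exons share 2169 bases with Thoc1 on the opposite strand, which fell (log2 fold change -0.41, adjusted p = 0.00871). The part of shared reads in the Usp14 values was not tested. Usp19, a protease of the endoplasmic reticulum, had 0.21 (adjusted p = 0.135) with groups that did not overlap, and was called once Nae1T-KO replicate 3 was left out (0.28, adjusted p = 0.0443, range 0.0443 to 0.542 across all alternatives). Usp5, which takes apart free ubiquitin chains, had 0.08, Usp30, which sits on mitochondria, 0.13, Usp38 0.12, and Usp25 -0.18.

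The 7 members grouped by membrane traffic likewise had 0 called in limma, edgeR, DESeq2 and limma-voom, against 12.7% of all tested genes in limma. They are too few to set the role apart. At an unadjusted p under 0.05 in limma there was 1, 14.3% against 29.1%. That 1 was Usp6nl, the RAB regulator, with 381, 477 and 399 normalized counts in Nae1T-KO and 334, 299 and 349 in Nae1WT (log2 fold change 0.35, SE 0.11, adjusted p = 0.0695). Its groups did not overlap, and Nae1T-KO replicate 2 was highest. Usp8, an endosomal protease, had 1447, 1670 and 1535 against 1691, 1575 and 1567 (log2 fold change -0.06, 95% interval -0.22 to 0.11, adjusted p = 0.667). Usp9x, on the X chromosome, had 3417, 3981 and 2628 against 4059, 3639 and 3694. It was lowest in Nae1T-KO replicate 3, and the groups overlapped (log2 fold change -0.20, 95% interval -0.50 to 0.10, adjusted p = 0.348). The 3 female libraries had 3417 to 3981 counts of it and the 3 male ones 2628 to 4059, so these also overlapped. Usp35, the member with the lowest mean, had 41.4, 42.3 and 29.3 against 34.4, 15.7 and 21.3 (log2 fold change 0.69, 95% interval -0.03 to 1.41, adjusted p = 0.185), on 15 to 48 recovered reads per library. The relatives Usp20 and Usp33 had 0.09 and -0.14, and Usp32 had -0.08. Of these, Usp33 was without overlap, with 779.5 to 923 normalized counts in Nae1T-KO and 934 to 971 in Nae1WT (adjusted p = 0.305).

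Usp39, Usp53 and Usp54 formed the last role. Its label, no known protease activity, was not tested here and should not be read as established for these genes. Of the 3, 0 were called by any of the 4 tools and 0 had an unadjusted p under 0.05. Over all tested genes limma called 12.7%, and 29.1% had an unadjusted p under 0.05, so 3 genes are too few to set the role apart. Usp39 had 2575, 2465 and 2535 against 2563, 2603 and 2617, which overlapped (log2 fold change -0.04, 95% interval -0.17 to 0.10), and its sign changed with scaling to equal total (0.00799). Usp53 and Usp54 had -0.06 and 0.07.

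Across the 43 members, genes with longer merged exons tended to have lower fold changes. Merged exon length joins all annotated exons of a gene, so it is not the length of the transcripts present. Spearman's rho between merged exon length and log2 fold change was -0.50 over the 43 members, against 0.02 over 12856 tested genes with a length, where genes share libraries and are not independent replicates. The 8 longest members, from 11.1 to 18.45 kb and counted after seeing the values, had log2 fold changes between -0.33 and -0.06, all negative. Of the 19 members of at least 8 kb, 12 were negative, and of the 24 shorter ones 7 were. Leaving out each library in turn left rho between -0.52 and -0.45. Against the rest of its group, Nae1T-KO replicate 3 had a median log2 deviation of -0.10 for the long members and -0.06 for the short ones, and -0.13 and 0.02 over all long and short genes. Nae1T-KO replicate 2 deviated as much the other way, by 0.10 and 0.13 for long and short members and by 0.13 and -0.02 over all genes. Mean level and log2 fold change had rho = -0.54 over the members and -0.03 over all tested genes. Merged exon length and mean level had rho = 0.28 over the members, so the trends with length and with level were not independent. Neither length nor level was tested as a source of the differences.

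**Figure D5:**
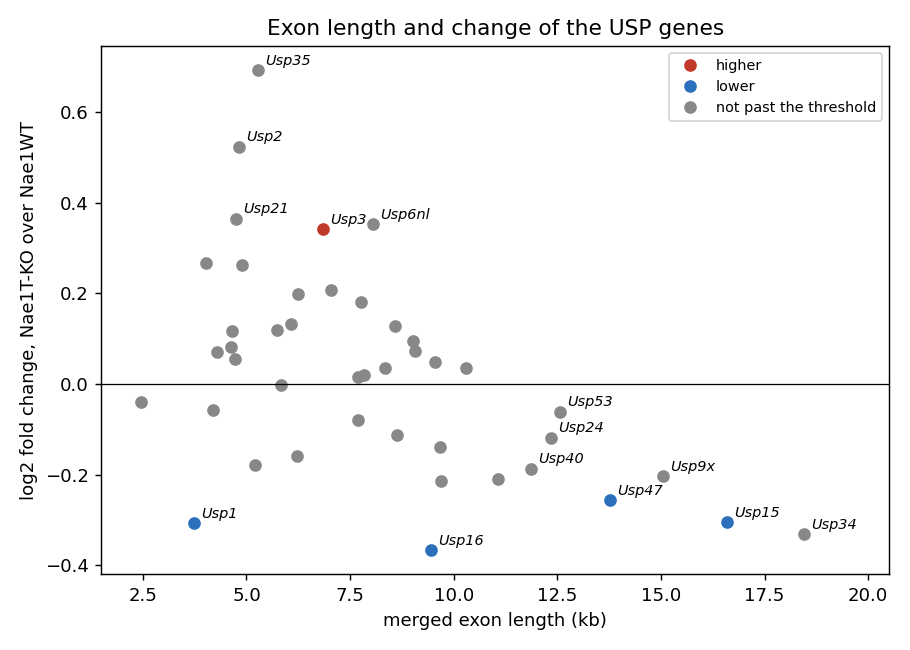
Log2 fold change (y axis, Nae1T-KO over Nae1WT) against merged exon length in kilobases (x axis) for the 43 USP genes, coloured by whether they passed the threshold. The 8 genes with the longest merged exons lie below 0, and Usp1, with 3.73 kb of merged exons, fell.

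Both groups held female and male libraries, and comparing libraries of the same sex gives 4 pairs. Every female pair uses Nae1WT replicate 3 and every male pair uses Nae1T-KO replicate 3, so the 4 pairs are not independent. For the 5 called members the direction in these pairs follows from groups without overlap, so only the sizes are new. All 4 pairs lay in 1 direction for 21 of the 43 members. Members without overlap do this by construction, which is 37.2% of members against 33.7% of all tested genes. The share of all tested genes with 4 pairs in 1 direction was not computed. The log2 differences were -0.42 to -0.22 for Usp16, -0.37 to -0.24 for Usp15, -0.39 to -0.26 for Usp1, -0.33 to -0.21 for Usp47 and 0.19 to 0.53 for Usp3. With sex as a covariate 1 member was higher and 4 lower, and all 5 calls were kept.

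Genes around the USP family gave context. Of 31 tested deubiquitinases of other families (34 listed), 2 were higher and 5 lower, 22.6% against 12.7% of all tested genes, with a median log2 fold change of -0.01. At an unadjusted limma p under 0.05 there were 11 of 31, 35.5% against 29.1%. This list was chosen with earlier results of these data known, so its shares do not set it apart. The counts higher and lower were also 2 and 5 in edgeR, 4 and 5 in DESeq2 and 2 and 4 in limma-voom. Uchl3 fell from 1922 to 1156 normalized counts (log2 fold change -0.74, adjusted p = 0.00155) and Otud1 rose from 111 to 220.0 (0.97, adjusted p = 0.00459). Uchl1 rose (0.69, adjusted p = 0.0310), and Tnfaip3, which encodes the NF-kB inhibitor A20, fell (-0.43, adjusted p = 0.0232). Each of these 4 was without overlap between groups. Of 15 binding partners of USPs, Hgs, an endosomal sorting gene whose protein works with USP8, was the 1 called (0.35, adjusted p = 0.0337), and 0 were lower, which is 6.67% called against 12.7% of all tested genes. At an unadjusted p under 0.05 there were 2 of 15, 13.3% against 29.1%, and DESeq2 also called 1 lower. The 4 ubiquitin genes had 0 called by limma, edgeR, DESeq2 or limma-voom and 0 at an unadjusted p under 0.05. Over all tested genes these shares were 12.7% and 29.1% in limma, and 4 genes are few. Their log2 fold changes ran from -0.23 to 0.12. Among 11 proteases of ubiquitin-like proteins, 1 was higher and 0 lower, 9.09% called against 12.7% of all tested genes. That 1 was Usp18, which removes the interferon-induced modifier ISG15 and was left out of the family by the rule. It had 191, 172 and 159 normalized counts in Nae1T-KO and 128, 79.4 and 113 in Nae1WT (log2 fold change 0.72, adjusted p = 0.0299).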

How the data were processed

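For 18288 genes and 6 libraries the authors deposited normalized counts, treated here as a signal without negative values. Per the submitters' processing notes, bcl2fastq, HISAT2, DESeq2 1.42.0 and the mm10 build were used; which read counter was run, and with what use of strand, is not given in the sources used here. In each column 100% of values were whole multiples of 1 step within 0.001 of a read, which gave back whole reads (less certain for Nae1T-KO replicate 3, whose step was near 1). All deposited columns were used. Genes with at least 10 in at least 3 libraries (13819) were put on the scale log2(normalized count + 1) and compared by limma 3.58.1 (R 4.3.3; trend, robust; group alone; two-sided), adjusted by Benjamini-Hochberg over all tested genes. Fold changes on this scale understate low genes. Count tests on recovered reads (edgeR 4.0.16, DESeq2, limma-voom) were alternatives and called 1796, 2047 and 1775 genes, against 1757. Exons came from GENCODE vM21, gene positions and start windows from RefSeq GRCm38.p6; all are builds of GRCm38. Named genes were the 5 called members, the next smallest p-values up to 12, 10 chosen for their roles, and the members of highest and lowest mean. From each related list up to 4 called genes are named. Members and lists were chosen with earlier results of these data known. The fit was tested on simulated data.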

Additional observations from a re-analysis of the deposited data

How the results depend on the processing

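Recovered reads (15628252 to 25444653 per library) limit mainly Usp35, Usp49, Usp27x, Usp44 and Usp2. Of 43 members, 31 kept their sign in every alternative that tested them and 12 did not. There were 19 alternatives, but 18 for Usp35, Usp44, Usp49 and Usp27x, which the stricter filter left out. Of the 38 members not called, 4 were called in at least 1 alternative. The matching share over all tested genes was not computed. The median log2 fold change of the members ran from -0.0282 to 0.0371 when 1 library was left out, and was 0.0816 with scaling to equal total (0.0344 as reported), where the median of all genes was 0.041 (-0.00606 as reported). Leaving out 1 library gave 844 to 1790 called genes, 0 to 2 members higher and 1 to 5 lower. The lowest counts came without Nae1WT replicate 2 (844 genes) or 3 (954 genes), each with 0 members higher and 1 lower, Usp16. Without Nae1T-KO replicate 2, 1034 genes were called. Scaling to equal total called 2 members higher and 3 lower, and limma-voom 2 and 4. Libraries with the same title number did not vary together (r = -0.13, -0.177 and -0.266 across genes), so the numbers were not taken as pairs. With the title number as a replicate block 968 genes, 0 members higher and 1 lower were called, and with the library-name number as a block on 4 libraries 253 genes, 0 members higher and 0 lower. In this last fit, which uses fewer libraries, signs changed for Usp36 (-0.0388), Usp28 (0.121), Usp10 (-0.0301), Usp31 (-0.0335), Usp46 (-0.0278) and Usp53 (0.0372). With sex as a covariate they changed for Usp28 (0.0556), Usp31 (-0.0294) and Usp46 (-0.0855), with scaling to equal total for Usp39 (0.00799) and Usp28 (0.0459), and for Usp28 with TMM (0.00159) and limma-voom (0.0332). Log2 fold changes crossed 0 when 1 library was left out for Usp11 (-0.0224 to 0.143), Usp27x (-0.0712 to 0.201), Usp49 (-0.0461 to 0.386), Usp36 (-0.0305 to 0.0508), Usp32 (-0.185 to 0.00808), Usp28 (-0.129 to 0.148), Usp31 (-0.0703 to 0.124), Usp46 (-0.0751 to 0.171), Usp53 (-0.126 to 0.0273) and Usp20 (-0.005 to 0.174). The cause of these changes was not tested.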
